A study of Danio rerio with 9 samples.

Results

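Chemokines, interleukins and their receptors are the secreted signals, and the surface proteins that read them, through which immune and tissue cells steer each other. The genes described here were taken by name from the table of zebrafish liver transcripts: symbols beginning with ccl, cxcl, ccr, cxcr or il followed by a digit, together with tnfa, tnfb, csf1a, csf1b, csf3a and csf3b. In all, 138 gene IDs matched, and 129 of the 33716 gene IDs in the table also had a level above 0 in at least 1 library. These 129 genes comprised 32 CC chemokines, 18 CXC chemokines, 21 chemokine receptors, 24 interleukins, 25 interleukin receptors, 6 TNF and CSF ligands and 3 further genes with the il prefix, of which il1rapl1 and il1rapl2 are relatives of the interleukin-1 receptor and il4i1 encodes an enzyme. Liver RNA was sequenced in 9 libraries. Of these, 3 came from maternal-zygotic focad-/- fish, 3 from maternal-zygotic pdia6-/- fish and 3 from wild-type fish of the AB line. In maternal-zygotic nulls neither the egg nor the embryo can make the normal product. The pdia6 null and wild-type fish were 3.5 months old, and no age is given for the focad null fish. AB is named for the wild type only, so a difference of line and one of genotype cannot be told apart.

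Chemokines are small secreted proteins that draw leukocytes along a gradient and are sorted into CC and CXC families by the spacing of their first cysteines. They act through G protein-coupled receptors named ccr and cxcr, whereas most interleukins act through paired receptor chains that start JAK-STAT signalling. Zebrafish carry many more chemokine genes than mammals, arranged in tandem clusters of close relatives. In the liver these molecules are best known for gathering neutrophils and lymphocytes, for keeping macrophages alive and for the hepatocyte response to interleukin-6.

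Each library held 46.1 to 54.5 M reads assigned to genes. The transcript of the targeted gene did not lie below the wild-type range in every null library. Focad stood at 0.295, 0.478 and 0.265 FPKM (reads per kilobase of gene, scaled to the depth of the library) in the 3 focad null libraries and at 1.15, 0.458 and 0.987 FPKM in wild type, which left focad null replicate 2 inside the wild-type range. Pdia6 measured 46.9, 0.933 and 0.908 FPKM in pdia6 null replicates 1 to 3 and at 269, 12.5 and 54.2 FPKM in wild type, so the library labelled pdia6 null replicate 1 lay inside the wild-type range. In pdia6 null livers focad stood at 1.28, 0.965 and 1.08 FPKM, above all 3 focad null libraries. In focad null livers pdia6 stood at 28.2, 23.5 and 19.6 FPKM, below pdia6 null replicate 1. Whether focad null replicate 2 or pdia6 null replicate 1 carries a wrong label was not tested. All libraries are named by their labels below. Hepatocyte markers were abundant everywhere, with a summed level of 122900 to 159000 FPKM in focad null, 143800 to 168800 in pdia6 null and 145600 to 159200 in wild-type libraries. Apoa2, the largest part of this sum, stood at 46190 to 63120 FPKM in focad null and 30470 to 43990 FPKM in wild type. The 14 markers had a median log2 difference from wild type (scale given below) of -0.65 in focad null and -0.30 in pdia6 null, with 0 called. In focad null, 4 of them lay below and 1 above all wild-type libraries, so the sum hides lower markers. Intestine markers other than apoa1b, which the liver also makes, were not abundant everywhere. They summed to 1292, 14210 and 156 FPKM in focad null replicates 1 to 3, against 6.21 to 13.6 FPKM in pdia6 null and 7.27 to 23.4 FPKM in wild-type libraries. In bulk RNA, fewer cells of a type and less RNA per cell cannot be told apart. Whether each library came from a different fish is not in the labels, so it is not known whether the p-values rest on spread between fish. Libraries of 1 group could differ widely, as those of wild type did for pdia6.

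Many of these genes had low levels in the liver, as did most gene IDs in the whole table. Of the 129, 59 reached the mean of 0.5 FPKM over the 9 libraries that was required for the test. The other 70 had at most 617 reads in all 9 libraries together. The same filter passed 13290 of all 33716 gene IDs, against 59 of the 138 matching IDs, so low levels were not particular to these genes. The share that passed differed between the roles. It was 19 of 32 CC chemokines, 10 of 18 CXC chemokines, 4 of 21 chemokine receptors, 6 of 24 interleukins, 18 of 25 interleukin receptors and 0 of 6 TNF and CSF ligands. A gene that is transcribed in 1 group alone passes this filter only through that group, so counts over the 59 are descriptions. Levels below are FPKM as deposited, which can be compared between genes because they are per length. Log2 differences are on the log2(FPKM + 1) scale after rescaling of the libraries, which understates the change of low genes, and p-values are from limma with Benjamini-Hochberg adjustment over all 13290 genes tested.

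Against wild type, focad null livers held more cxcl8b.3, a relative of the neutrophil attractant CXCL8, and less of the CC chemokine ccl39.7 and of il2rb, the receptor chain shared by interleukin-2 and interleukin-15. These 3 of the 59 genes (5.08%) passed at an adjusted p of 0.05, against 1.56% of all genes tested. In the separate directions, 0.625% of all genes were called higher and 0.933% lower in focad null livers. At an unadjusted p below 0.05 there were 17 of 59 (28.8%), against 14.7% of all genes. All 3 focad null libraries lay on the same side of all 3 wild-type libraries for 16 of the 59 genes (27.1%), 8 of them higher and 8 lower. Over all genes, 20.7% were apart in this way, with 13.7% higher and 7.01% lower. The median log2 difference over the 59 genes was -0.02, beside 0.01 over all genes tested. When reads recovered from the FPKM values were tested with limma voom, 2 of 81 genes were called, cxcl8b.3 and ccl39.7, against a background of 1.41%. The count of 3 became 5 when focad null replicate 3 was left out, 1 without focad null replicate 1 and 0 without wild-type replicate 2. It was 1, cxcl8b.3, without the 2 null libraries whose targeted transcript lay inside the wild-type range.

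No gene of the 59 passed between pdia6 null and wild-type livers with limma, where 1.23% of all genes were called, 0.519% higher and 0.707% lower. At an unadjusted p below 0.05 there were 10 (16.9%), beside 12.5% of all genes. Limma voom also called 0 of 81, against 1.03% of all genes. At an unadjusted p below 0.05 voom had 13 of 81 (16%), beside 12.4% of all genes. The lowest adjusted p, 0.0981, belonged to il13ra2, the decoy receptor of interleukin-13 in mammals. Pdia6 null and wild-type libraries did not overlap for 15 of the 59 genes (25.4%), 4 higher and 11 lower in pdia6 null. Over all genes that share was 20.5%, with 12.0% higher and 8.57% lower. The median log2 difference was -0.19 over the 59 genes and -0.01 over all genes. Without wild-type replicate 1 the count was 1, il13ra2.

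The focad null and pdia6 null livers differed from each other in 3 CC chemokines. Ccl35.1 was higher in focad null livers, and ccl39a.10 and ccl39.7 were lower. These are 3 of 59 (5.08%), against 1.2% of all genes, of which 0.609% were called higher and 0.594% lower. At an unadjusted p below 0.05 there were 19 of 59 (32.2%), against 17.9% of all genes. The 2 null groups did not overlap for 25 of the 59 genes (42.4%), 15 higher and 10 lower in focad null, where 24.1% of all genes did not overlap, 13.2% higher and 11.0% lower. Limma voom called ccl39.7 and ccl35.1 among 81 genes, against 1.42% of all genes. The count of 3 rose to 10 without focad null replicate 3 and fell to 1 without pdia6 null replicate 1, wild-type replicate 1 or wild-type replicate 2. It was 0 without focad null replicate 1 or 2 and without pdia6 null replicate 2 or 3. The count was 1, ccl35.1, without the 2 null libraries whose targeted transcript lay inside the wild-type range. The comparisons of each null with wild type share the wild-type libraries, and each is given below with its own values.

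**Figure D1:**
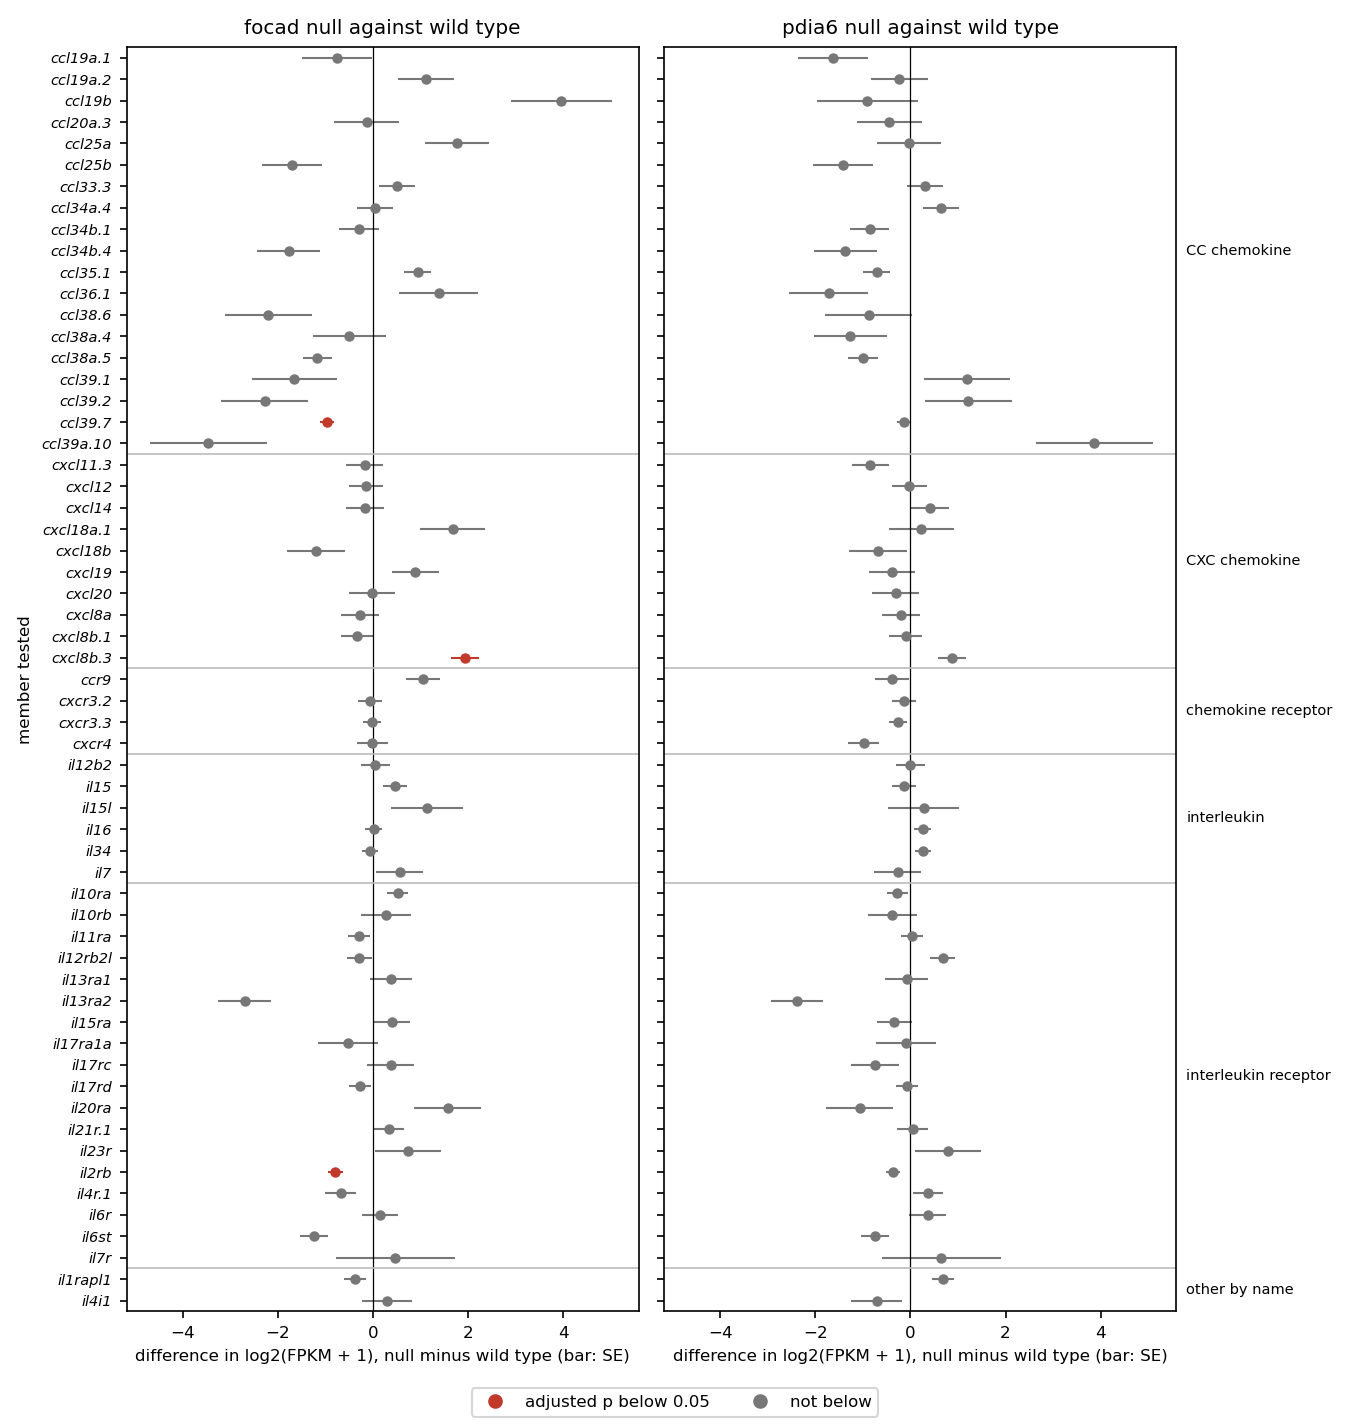
Differences in log2(FPKM + 1) of the 59 tested genes, focad null minus wild type (left) and pdia6 null minus wild type (right). Points are limma estimates with bars of 1 SE, grouped by role, and the 3 red points (ccl39.7, cxcl8b.3 and il2rb) are those with an adjusted p below 0.05, all in the left panel.

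Several CC chemokines of the ccl39 series were without reads or low in focad null livers. Ccl39.7 (ENSDARG00000099982) was without reads in all 3 focad null libraries. Its level was 0.925, 0.769 and 0.679 FPKM in pdia6 null livers and at 1.23, 0.803 and 0.704 FPKM in wild-type livers. Pdia6 null and wild type thus overlapped, while focad null lay below both. With 0 reads in focad null against 97 in wild type, the level was at least 34.2-fold lower, taking a floor of 3 reads over the group, which covers counting error only. The fitted log2 difference was -0.96 ± 0.15 (SE, n = 3 each, limma adjusted p = 0.0218). Against pdia6 null, with 89 reads, focad null was at least 29.8-fold lower (log2 difference -0.82 ± 0.15, limma adjusted p = 0.0488). The call against wild type was lost without focad null replicate 1 (adjusted p = 0.117) and without wild-type replicate 2 (adjusted p = 0.0727). The call against pdia6 null was kept without focad null replicate 3, and the adjusted p lay between 0.0600 and 0.195 in the other 7 fits in which the gene was tested. Without wild-type replicate 1 it did not pass the filter on low values, so neither call could be made. With a mean of 0.568 FPKM over the 9 libraries, ccl39.7 passed the filter on low values by a small margin.

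Ccl39a.10 (ENSDARG00000096060) likewise had no read in the focad null libraries, but was among the most abundant chemokines of the pdia6 null livers. It reached 172, 236 and 110 FPKM in pdia6 null, against 0, 47.8 and 22.2 FPKM in wild type. The lowest pdia6 null library thus lay above the highest wild-type library, and wild-type replicate 1 had no read at all. Focad null was at least 1833-fold lower than pdia6 null over the group, from 0 against 5478 reads (log2 difference -7.33 ± 1.23, limma adjusted p = 0.0336). This call was lost without focad null replicate 1 or 2 and without any of the 3 pdia6 null replicates (adjusted p of 0.120, 0.0687, 0.102, 0.115 and 0.0898). Pdia6 null against wild type gave 3.87 ± 1.23 and did not pass (limma adjusted p = 0.231). In the authors' deposited table for pdia6 null, ccl39a.10 had an adjusted p of 0.00106, and in that for focad null an adjusted p of 0.0393. In the present test focad null against wild type gave -3.46 ± 1.23 (limma adjusted p = 0.254), and it passed only without wild-type replicate 1.

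The most abundant CC chemokine was ccl39.2. It stood at 34.3, 30.2 and 23.9 FPKM in focad null, at 295, 436 and 311 FPKM in pdia6 null and at 522, 187 and 24.5 FPKM in wild type. The 2 null groups did not overlap, but wild type spanned both, with replicate 3 at the focad null level. Neither the difference from wild type (-2.28 ± 0.91, limma adjusted p = 0.3003) nor that from pdia6 null (-3.50 ± 0.91, adjusted p = 0.119) passed. Leaving out wild-type replicate 3 brought both under 0.05. Ccl39.1 kept the same order, at 0.0438, 0.622 and 0.588 FPKM in focad null, 12.3, 15.5 and 3.83 FPKM in pdia6 null and 16.4, 3.16 and 0.0489 FPKM in wild type. Its wild-type libraries spread over nearly the whole range of the null groups.

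Rarer members of the series also lacked reads in focad null. Ccl39.3 had 0 reads there, 51 in pdia6 null and 10 in wild type, and ccl39.5 had 0, 60 and 6 reads in the same groups. Ccl38a.5 had 0 reads in focad null, 11 in pdia6 null and 106 in wild type, or at least 37.4-fold less in focad null than in wild type (log2 difference -1.17 ± 0.31, limma adjusted p = 0.138). Among the 59 tested genes, 3 (5.08%) were without a read in all focad null libraries, ccl38a.5, ccl39.7 and ccl39a.10, compared with 0.369% of all genes tested. The same was true of 1 gene (1.69%, against 0.579%) in pdia6 null and of 0 genes (against 0.278%) in wild type. The counting method for reads that match several close paralogs is not given in the sources used here, so values of single genes within these clusters are uncertain.

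**Figure D2:**
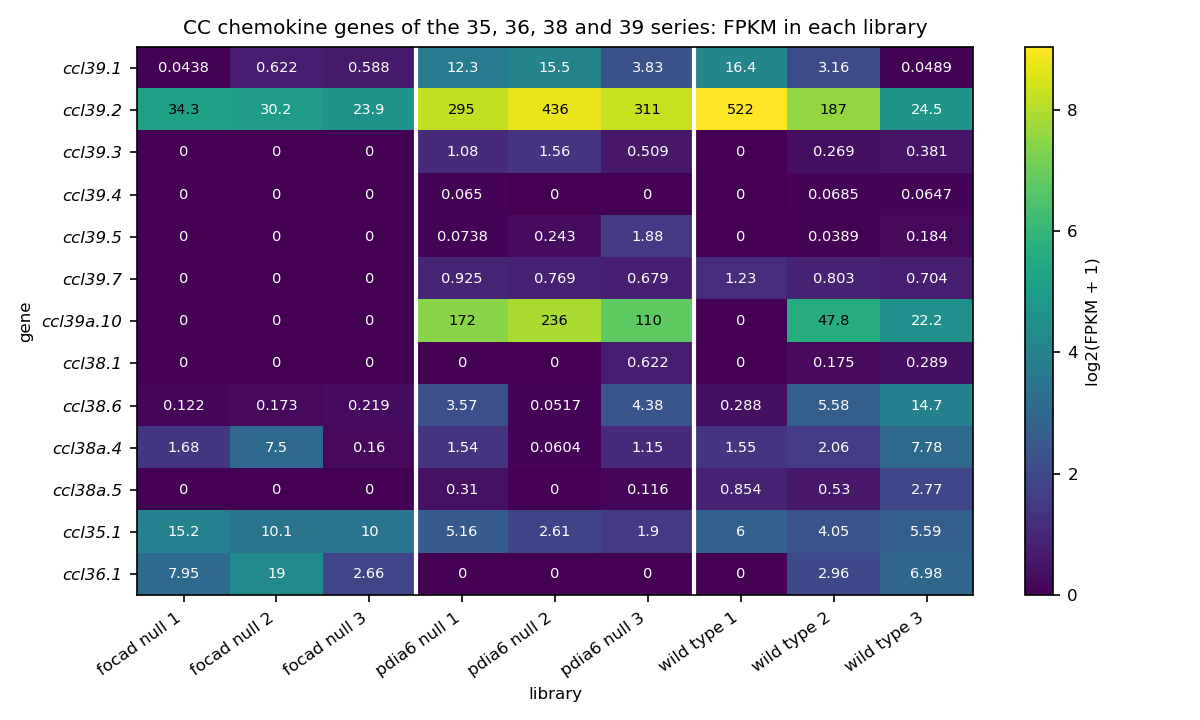
Heat map of 13 CC chemokine genes (rows) in the 9 libraries (columns, focad null, pdia6 null and wild type), coloured by log2(FPKM + 1) with the deposited FPKM printed in each cell. Ccl39.7 and ccl39a.10 are at 0 in the 3 focad null libraries, while ccl36.1 is at 0 in the 3 pdia6 null libraries.

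Ccl35.1 and ccl36.1 ran the other way. Ccl35.1 (ENSDARG00000103466) measured 15.2, 10.1 and 10.02 FPKM in focad null, 5.16, 2.61 and 1.90 FPKM in pdia6 null and 6.01, 4.06 and 5.59 FPKM in wild type. Focad null lay above both other groups, which overlapped each other. It averaged 11.8 ± 2.94 FPKM in focad null and 3.22 ± 1.72 FPKM in pdia6 null (SD, n = 3 each), a log2 difference of 1.65 ± 0.28 (limma adjusted p = 0.0357). The difference from wild type, 0.94 ± 0.28, did not pass (limma adjusted p = 0.186). The call between the nulls was kept without focad null replicate 3 or without pdia6 null replicate 1, and leaving out any other library raised the adjusted p to between 0.0544 and 0.142. Ccl36.1 measured 7.95, 19 and 2.66 FPKM in focad null and 0 in all 3 pdia6 null libraries, against 0, 2.96 and 6.98 FPKM in wild type. Its 0 reads in pdia6 null against 371 in wild type put it at least 130-fold lower. The log2 difference of -1.72 ± 0.83 did not pass (limma adjusted p = 0.450), although the authors' deposited table gives an adjusted p of 0.0457.

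Homeostatic CC chemokines made up the next group. Ccl19b, a ligand of Ccr7 that guides lymphocytes and dendritic cells in mammals, stood at 48.2, 155 and 5.63 FPKM in focad null, 0.777, 0.131 and 0 FPKM in pdia6 null and 0.495, 0.555 and 4.14 FPKM in wild type. Focad null lay above both other groups, with a wide spread among its own libraries. The log2 difference was 3.96 ± 1.06 against wild type (limma adjusted p = 0.141) and 4.87 ± 1.06 against pdia6 null (adjusted p = 0.0772). Ccl25a, a counterpart of the gut and thymus chemokine CCL25, showed the same library order, with 2.22, 9.98 and 0.191 FPKM in focad null. Its level was at most 0.0188 FPKM in pdia6 null and 0.0755 FPKM in wild type. The log2 difference from wild type, 1.77 ± 0.68, did not pass (limma adjusted p = 0.285). Without focad null replicate 3, the lowest of its group, both genes passed against wild type and against pdia6 null. Its paralog ccl25b went the other way, at 3.49, 2.72 and 2.08 FPKM in focad null, 8.86, 3.77 and 1.01 FPKM in pdia6 null and 9.27, 4.69 and 24.1 FPKM in wild type. Focad null lay wholly below wild type (-1.70 ± 0.63, limma adjusted p = 0.268). Ccl19a.1 averaged 8.21 ± 2.78, 6.58 ± 8.65 and 14.0 ± 6.85 FPKM in focad null, pdia6 null and wild type (SD, n = 3 each), with overlapping libraries. Among scarce CC chemokines outside the test, ccl20b had 111 reads in focad null, 5 in pdia6 null and 19 in wild type. Ccl27b had 1, 12 and 20 reads in the same groups.

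The order seen for ccl19b and ccl25a, highest in focad null replicate 2, then 1, then 3, was also that of 11 of the 13 intestine marker gene IDs. The exceptions were apoa1b and sult1st1, with sult1st1 at 10.6, 3.39 and 11.4 FPKM in focad null replicates 1 to 3. Fabp2, which binds fatty acids in the intestine, reached 253, 3295 and 78.5 FPKM in focad null, against 0.230 to 3.57 FPKM in pdia6 null and 2.63 to 5.31 FPKM in wild type. Of 12 intestine markers tested, 10 were higher in every focad null library than in every wild-type library, with a median log2 difference of 3.02. Among the 59 genes, 29 (49.2%) had this order of focad null libraries, compared with 24.7% of all genes tested. Of these, 9 (15.3%) also exceeded all pdia6 null and wild-type libraries by more than 3-fold in focad null replicate 2, compared with 6.34% of all genes. They were ccl19a.2, ccl19b, ccl25a, ccr9, cxcl18a.1, cxcl19, il15l, il20ra and il7. The part of intestinal RNA in these values was not tested. Ccr9, cxcl19 and il20ra of these genes also passed between focad null and pdia6 null when focad null replicate 3 was left out, as did ccl36.1 and il10ra.

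**Figure D3:**
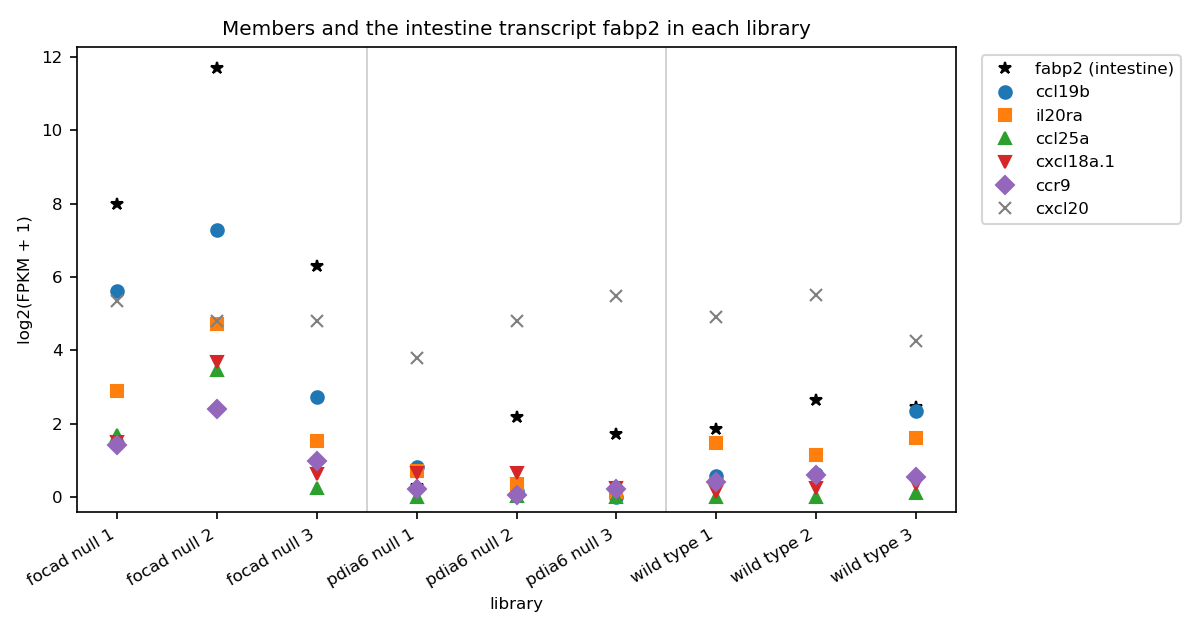
Levels as log2(FPKM + 1) of 5 such genes, of the intestine marker fabp2 (stars) and of cxcl20 (crosses) in each library, with focad null, pdia6 null and wild type from left to right. Fabp2, ccl19b, il20ra, ccl25a, cxcl18a.1 and ccr9 are all highest in focad null replicate 2, and cxcl20 is not.

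Among the CXC chemokines, cxcl8b.3 (ENSDARG00000099169) was the gene called in focad null livers. CXCL8 is the classical neutrophil attractant, and zebrafish hold several copies of it. Cxcl8b.3 measured 11.04, 4.32 and 5.15 FPKM in focad null, 2.24, 3.33 and 2.06 FPKM in pdia6 null and 1.08, 0.866 and 0.597 FPKM in wild type. The 3 groups did not overlap at all, with focad null highest and wild type lowest. The means were 6.84 ± 3.67 FPKM in focad null and 0.846 ± 0.240 FPKM in wild type (SD, n = 3 each), 8.08-fold apart. The log2 difference was 1.93 ± 0.29 (limma adjusted p = 0.0162). Pdia6 null averaged 2.54 ± 0.685 FPKM, 3.00-fold the wild-type mean, and its log2 difference of 0.87 ± 0.29 did not pass (limma adjusted p = 0.260), nor did that between the nulls (1.07 ± 0.29, adjusted p = 0.130). The call against wild type was lost without wild-type replicate 2 (adjusted p = 0.0545) or wild-type replicate 3 (adjusted p = 0.0687). Unlike the genes above, cxcl8b.3 was not highest in focad null replicate 2. Its order there, replicate 1, then 3, then 2, was that of the summed exocrine pancreas markers, at 4153, 623 and 2038 FPKM in focad null replicates 1 to 3. In pdia6 null and in wild type the orders differed. How many of all genes had the order 1, 3, 2 in focad null was not counted, and the part of pancreatic RNA in these values was not tested.

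Its paralogs did not follow it. Cxcl8b.1 averaged 2.01 ± 0.339 FPKM in focad null, 2.90 ± 2.00 in pdia6 null and 2.68 ± 0.787 in wild type (SD, n = 3 each). Cxcl8a averaged 0.481 ± 0.324, 0.624 ± 0.523 and 0.950 ± 1.17 FPKM in the same groups. Groups overlapped for both genes. The receptors of Cxcl8 were near the limit of detection, since the 2 gene IDs named cxcr1 had 7 and 2 reads in focad null, 5 and 5 reads in pdia6 null and 16 and 7 reads in wild type.

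**Figure D4:**
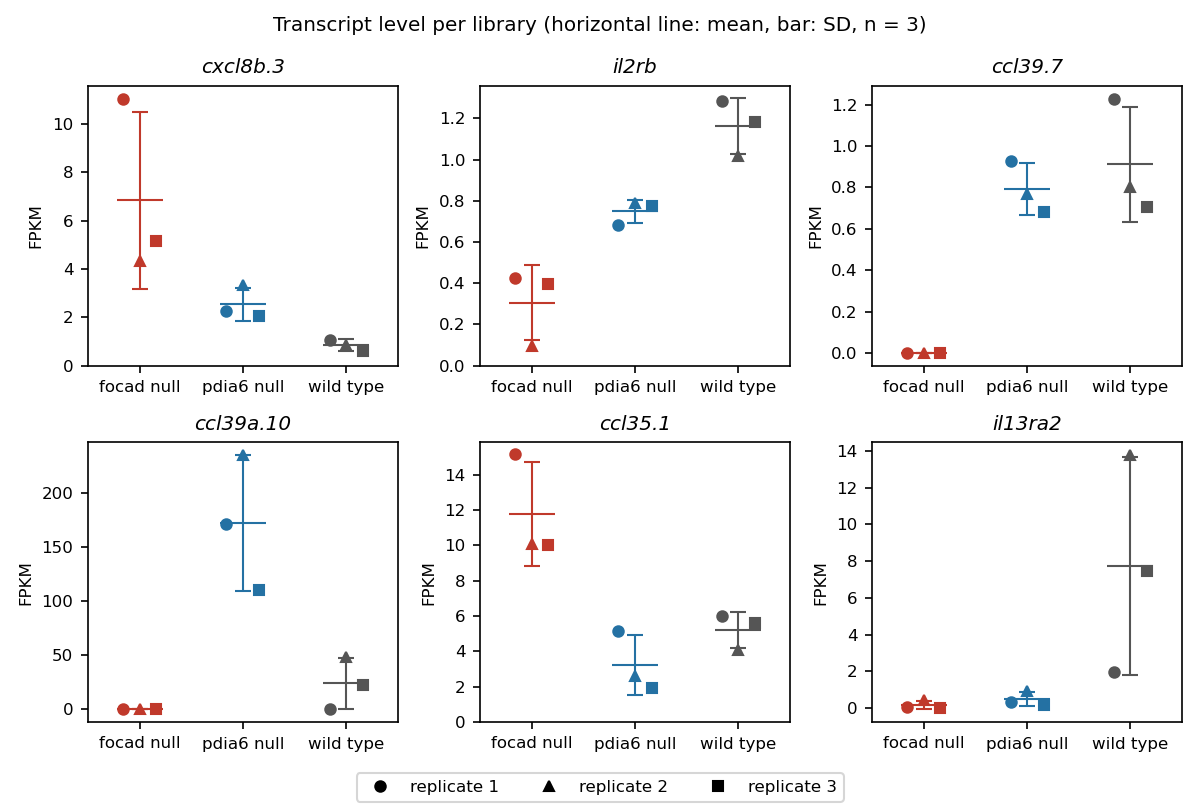
FPKM of cxcl8b.3, il2rb, ccl39.7, ccl39a.10, ccl35.1 and il13ra2 in each library, with focad null left of pdia6 null and wild type. Horizontal lines are group means and bars SDs (n = 3), and marker shapes give the replicate number, which was not used to link libraries across groups. Cxcl8b.3 is highest and il2rb lowest in focad null, while il13ra2 is highest in wild type.

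Cxcl20 was the most abundant CXC chemokine and did not differ between groups beyond their spread. It measured 39.8, 26.8 and 26.9 FPKM in focad null, 12.8, 27.1 and 43.5 FPKM in pdia6 null and 29.0, 44.9 and 18.2 FPKM in wild type. Cxcl18b, an attractant of neutrophils in zebrafish, came next, at 7.28, 13.1 and 11.97 FPKM in focad null, 28.1, 15.7 and 8.20 FPKM in pdia6 null and 58.6, 21.9 and 10.02 FPKM in wild type. All 3 groups overlapped. The paralog cxcl18a.1 was higher in every focad null library than in every wild-type library, at 1.83, 11.8 and 0.564 FPKM against 0.108, 0.190 and 0.282 FPKM, but the difference of 1.68 ± 0.68 did not pass (limma adjusted p = 0.305). Cxcl19 stood at 1.58, 3.86 and 0.206 FPKM in focad null and at 0.0591, 0.0278 and 0 FPKM in pdia6 null, against 0.0931, 0.0934 and 0.971 FPKM in wild type. The interferon-induced cxcl11 genes were scarce. Cxcl11.1 had 62 reads in focad null, 24 in pdia6 null and 55 in wild type, cxcl11.6 had 11, 0 and 15, and cxcl11.8 had 12, 1 and 19. For these last 2 genes, every pdia6 null library lay below every library of the other groups, but only by single reads. Cxcl11.6 had 1 read in each of wild-type replicates 1 and 3. Cxcl11.8 had 1 read in pdia6 null replicate 2 and also 1 in wild-type replicate 2, which differ only through depth. Cxcl12b, a ligand of Cxcr4, had 78 reads in focad null, 7 in pdia6 null and 8 in wild type. Its more abundant paralog cxcl12 had 935, 1240 and 956 reads in the same groups, and each null overlapped wild type.

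Few chemokine receptors reached the tested level, 4 of 21. The 2 gene IDs named cxcr4 differed in level. Cxcr4 is the receptor of Cxcl12 and is found on most leukocytes. The more abundant ID (ENSDARG00000041959) measured 2.77, 2.63 and 2.29 FPKM in focad null, 0.985, 0.441 and 1.11 FPKM in pdia6 null and 1.96, 1.32 and 4.84 FPKM in wild type. Pdia6 null lay below both other groups (-0.98 ± 0.33 against wild type, limma adjusted p = 0.259). The other ID (ENSDARG00000057633) had 13, 6 and 3 reads in focad null, pdia6 null and wild type. Ccr9, the receptor of Ccl25 and a gut-homing receptor in mammals, was also the name of 2 gene IDs. The more abundant (ENSDARG00000055186) stood at 1.67, 4.26 and 0.973 FPKM in focad null, 0.178, 0.0418 and 0.166 FPKM in pdia6 null and 0.326, 0.515 and 0.475 FPKM in wild type. Focad null thus lay above wild type (1.05 ± 0.36, limma adjusted p = 0.234) and pdia6 null below it (-0.38 ± 0.36, adjusted p = 0.744). The lower ID (ENSDARG00000099738) had 35, 0 and 1 reads. Cxcr3.2 and cxcr3.3, receptors of the Cxcl11 family, averaged 0.593 ± 0.343 and 1.64 ± 0.0760 FPKM in focad null, 0.554 ± 0.386 and 1.24 ± 0.306 in pdia6 null and 0.618 ± 0.195 and 1.56 ± 0.309 in wild type (SD, n = 3 each), and both null groups overlapped wild type for both genes. Ccr7, the receptor of Ccl19, had 31, 27 and 27 reads in focad null, pdia6 null and wild type.

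Inflammatory interleukins were almost silent in all groups. Il1b, the main alarm cytokine of macrophages, had 41 reads in focad null, 29 in pdia6 null and 57 in wild type. Il10, which dampens inflammation, had 39, 6 and 13 reads, and il6, the inducer of the acute-phase response, was listed at 0 in all 9 libraries. Il12bb, a chain of interleukin-12, had 26, 13 and 1 reads, and the mucosal il17c had 10, 0 and 8. These genes lay below the filter of 0.5 FPKM and did not enter the main test, so differences between groups were not tested there. Limma voom, with its filter on reads, called none of them. The interleukins that reached the test were il12b2, il15, il15l, il16, il34 and il7, and none passed in any comparison. Il34, which with the csf1 ligands sustains macrophages through Csf1r, measured 1.55, 1.02 and 1.42 FPKM in focad null, 1.98, 2.35 and 1.58 FPKM in pdia6 null and 1.21, 1.198 and 1.60 FPKM in wild type, with overlap between each null and wild type. Il15, a survival factor of natural killer and memory T cells, stood at 2.65, 2.94 and 1.45 FPKM in focad null, 1.12, 1.34 and 1.06 FPKM in pdia6 null and 1.05, 1.73 and 1.13 FPKM in wild type. Il15l measured 1.18, 10.8 and 0.337 FPKM in focad null, 0.477, 0.492 and 1.76 FPKM in pdia6 null and 1.03, 0.373 and 0.138 FPKM in wild type. A single library, focad null replicate 2, set the focad null mean of il15l.

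Il2rb (ENSDARG00000075720) was the interleukin receptor called lower in focad null livers. Its product carries the interleukin-2 and interleukin-15 signal in T cells and natural killer cells. It measured 0.425, 0.0952 and 0.399 FPKM in focad null, 0.684, 0.790 and 0.773 FPKM in pdia6 null and 1.29, 1.02 and 1.18 FPKM in wild type. The 3 groups did not overlap, with wild type highest. The means were 0.306 ± 0.183 FPKM in focad null and 1.16 ± 0.135 FPKM in wild type (SD, n = 3 each), from 75 and 262 reads, and the log2 difference was -0.79 ± 0.15 (limma adjusted p = 0.0450). This call was the least stable. It held without focad null replicate 3 (adjusted p = 0.0465), while leaving out any other library gave between 0.0589 and 0.145, and limma voom gave 0.0711. The authors' deposited table gives il2rb an adjusted p of 0.455 for focad null, against 0.0129 for cxcl8b.3 and 0.000636 for ccl39.7. Among 19 T and natural killer cell markers, with rag1 at 0, the tested gene with the lowest p was cd28, a costimulatory receptor of T cells. It stood at 0.848, 1.75 and 0.0343 FPKM in focad null and 1.19, 0.778 and 0.126 FPKM in pdia6 null, against 1.76, 4.48 and 4.06 FPKM in wild type. Pdia6 null lay below wild type, as for il2rb. Focad null replicate 2 and wild-type replicate 1 were nearly level for cd28, at 1.753 and 1.758 FPKM as deposited. Rescaling of these 2 libraries, by factors of 0.9054 and 1.014, reverses their order, so focad null and wild type then overlap. The log2 differences of -1.34 ± 0.45 and -1.46 ± 0.45 did not pass (limma adjusted p = 0.227 and 0.213). The other markers tested, zap70, runx3 and itk, went the other way in focad null. They averaged higher there than in wild type, with overlapping libraries. Over the 4 markers tested, the median log2 difference from wild type was 0.36 in focad null and -0.33 in pdia6 null. The markers together summed to 1.77 to 17.3 FPKM in focad null, 1.53 to 5.29 FPKM in pdia6 null and 4.63 to 9.47 FPKM in wild type. Focad null replicate 2, the lowest library for il2rb, had the highest marker sum, and the part of T cell number in these values was not tested. The gamma chain that pairs with it, il2rga, had 44, 66 and 71 reads in focad null, pdia6 null and wild type.

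Il13ra2, which binds interleukin-13 without signalling in mammals, was low in both null groups. It measured 0.0560, 0.431 and 0.0157 FPKM in focad null and 0.346, 0.933 and 0.188 FPKM in pdia6 null, against 1.95, 13.8 and 7.48 FPKM in wild type. Every null library lay below every wild-type library, and the wild-type libraries themselves spread widely. The means differed 46.2-fold for focad null and 15.8-fold for pdia6 null. The log2 differences of -2.70 ± 0.55 and -2.39 ± 0.55 missed the threshold (limma adjusted p = 0.0574 and 0.0981). For focad null the gene did pass with a pseudocount of 0.1 or 0.5 (adjusted p = 0.0317 and 0.0396) and with FPKM as deposited (adjusted p = 0.0485), among alternatives that ran from 0.00551 to 0.213. Without wild-type replicate 1, the lowest of its group, the differences were -3.38 (adjusted p = 0.00551) and -3.07 (adjusted p = 0.00903). Il13ra1, the signalling counterpart, averaged 3.53 ± 2.60 FPKM in focad null, 2.103 ± 0.937 in pdia6 null and 2.09 ± 0.794 in wild type (SD, n = 3 each).

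Il6st, which encodes the signal-transducing chain gp130 shared by the interleukin-6 family, followed the same order at a higher level. It measured 5.73, 3.17 and 6.63 FPKM in focad null and 9.23, 4.90 and 9.08 FPKM in pdia6 null, against 16.1, 11.2 and 10.1 FPKM in wild type. All null libraries were below all wild-type libraries, while the nulls overlapped each other. The log2 differences were -1.24 ± 0.29 for focad null and -0.75 ± 0.29 for pdia6 null, and neither passed (limma adjusted p = 0.0900 and 0.344). Il6r, the ligand-binding partner of gp130 and the most abundant interleukin receptor here, did not show this. Its level was 26.0, 12.96 and 28.2 FPKM in focad null, 44.7, 20.6 and 16.5 FPKM in pdia6 null and 17.3, 14.3 and 22.2 FPKM in wild type, with overlap throughout.

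The other abundant receptors did not pass against wild type, with single libraries far above the rest for some of them. Il10rb, the chain shared by interleukin-10 and interleukin-22, measured 6.81, 23.1 and 5.496 FPKM in focad null, 7.32, 5.39 and 5.11 FPKM in pdia6 null and 5.18, 7.63 and 9.84 FPKM in wild type. Il20ra stood at 6.38, 25.4 and 1.90 FPKM in focad null, 0.655, 0.272 and 0.111 FPKM in pdia6 null and 1.81, 1.21 and 2.09 FPKM in wild type. Pdia6 null thus lay below both other groups for il20ra. Its log2 difference from wild type was -1.07 ± 0.71 (limma adjusted p = 0.612), whereas the authors' deposited table gives an adjusted p of 0.00808. Il23r averaged 5.67 ± 2.54 FPKM in focad null, 6.32 ± 4.08 in pdia6 null and 3.78 ± 3.17 in wild type (SD, n = 3 each), and wild-type replicate 2 stood at 0.142 FPKM. Il7r was set by 2 libraries, at 10.7 FPKM in focad null replicate 2 and 21.9 FPKM in pdia6 null replicate 1, and lay between 0.102 and 2.07 FPKM in the other 7. Il4r.1 measured 2.37, 1.32 and 1.24 FPKM in focad null, 7.77, 2.45 and 4.32 FPKM in pdia6 null and 2.79, 2.57 and 3.55 FPKM in wild type. Focad null lay below both other groups for il4r.1 (-0.68 ± 0.32 against wild type, limma adjusted p = 0.375). Il22ra2 had 10, 0 and 8 reads in focad null, pdia6 null and wild type.

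The TNF and CSF ligands, which drive inflammation and myeloid growth, did not reach the tested level. Tnfa had 20 reads in focad null, 5 in pdia6 null and 9 in wild type, and tnfb had 30, 23 and 37. The macrophage factors csf1a and csf1b had 40 and 67 reads in focad null, 10 and 51 in pdia6 null and 35 and 16 in wild type. The granulocyte factors csf3a and csf3b had 12 and 2, 11 and 5, and 23 and 4 reads in the same groups. Of csf1a reads, 32 of the 40 in focad null came from replicate 2. Of the further genes with the il prefix, il1rapl1 (ENSDARG00000062045), a synaptic adhesion protein related to the interleukin-1 receptor, stood at 0.173, 0.0758 and 0.0573 FPKM in focad null, 1.63, 1.65 and 0.775 FPKM in pdia6 null and 0.159, 0.296 and 0.830 FPKM in wild type. The null groups did not overlap (-1.05 ± 0.23, limma adjusted p = 0.0772). Il4i1, a secreted amino acid oxidase, stood at 0.808, 2.88 and 0.235 FPKM in focad null and at 0, 0.00890 and 0.0660 FPKM in pdia6 null, against 0.0793, 2.22 and 0.235 FPKM in wild type.

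Summed over a class, the libraries of a group often differed more than the groups did. The 32 CC chemokines summed to 130, 268 and 55.6 FPKM in focad null, 537, 707 and 442 FPKM in pdia6 null and 578, 295 and 145 FPKM in wild type. The null groups did not overlap, and wild type lay across both. Ccl39.2 alone made up 26.4%, 11.3% and 42.9% of the sum in focad null, 55.1%, 61.8% and 70.4% in pdia6 null and 90.3%, 63.4% and 16.9% in wild type. Interleukins summed to 9.81, 23.1 and 5.81 FPKM in focad null, 8.58, 6.67 and 6.55 FPKM in pdia6 null and 6.82, 5.15 and 6.43 FPKM in wild type. Interleukin receptors summed to 71.9, 106 and 59.6 FPKM in focad null, 120, 52.8 and 55.3 FPKM in pdia6 null and 68.8, 65.0 and 80.2 FPKM in wild type. The highest sums of the last 2 classes stood in the libraries labelled focad null replicate 2 and pdia6 null replicate 1.

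**Figure D5:**
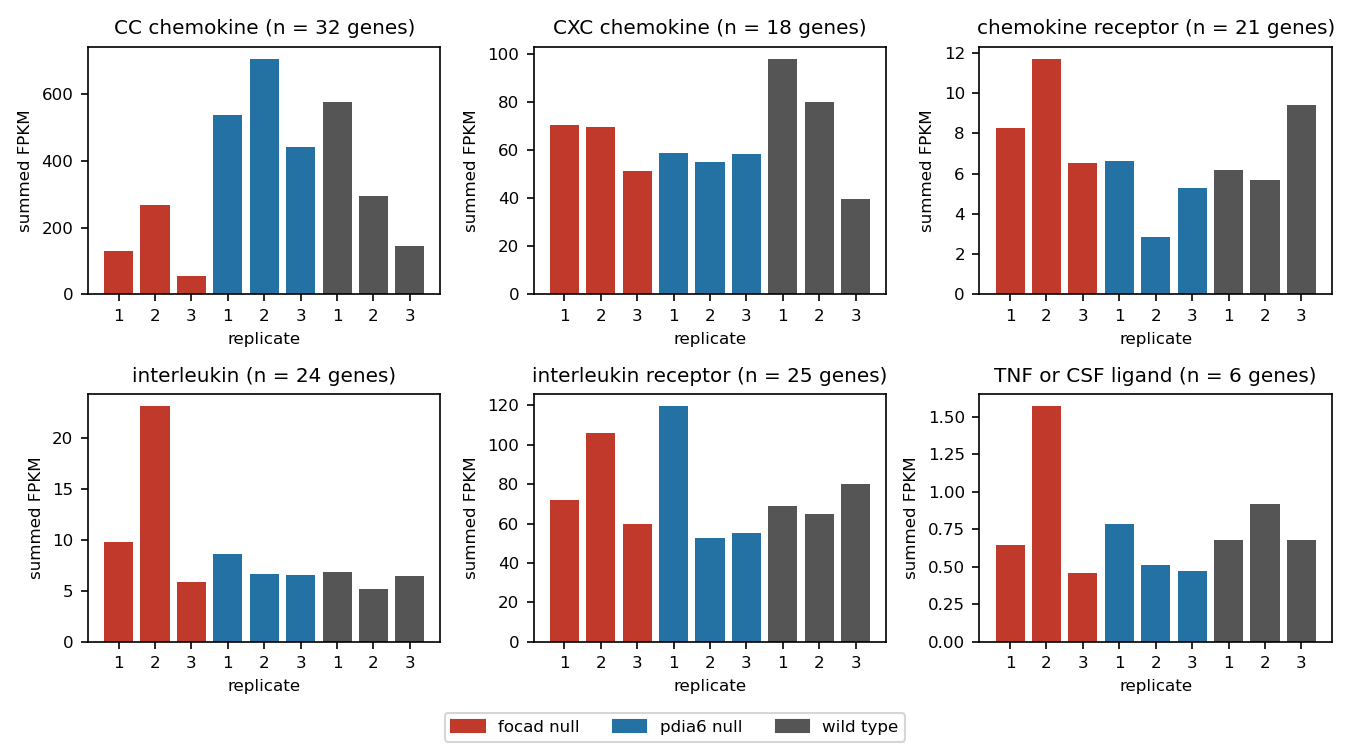
Summed FPKM of each role class in each library, with focad null, pdia6 null and wild type from left to right and axes that start at 0. The 3 focad null libraries lie below the 3 pdia6 null libraries for the CC chemokines, whereas interleukins peak in focad null replicate 2 and interleukin receptors in pdia6 null replicate 1 and focad null replicate 2.

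These genes varied more between libraries than most. The range of a gene over the 9 libraries had a median of 2.03 log2 units for the 59 genes and 1.21 for all genes tested, and exceeded 2 log2 units for 30 of 59 (50.8%), against 22.2% of all genes. Ccl39a.10 had the widest range, 7.84 log2 units, followed by ccl19b with 7.42 and il20ra with 4.71. The narrowest belonged to il34, il16 and cxcr3.3, with 0.62, 0.63 and 0.63 log2 units. Focad null replicate 2 was the highest library for 18 of the 59 genes (30.5%, against 21.0% of all genes) and pdia6 null replicate 1 for 12 (20.3%, against 15.6%). Focad null replicate 3 was highest for 0 of 59, against 12.9% of all genes.

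The tested signalling genes downstream of these receptors did not pass in any of the 3 comparisons. Not all listed symbols were found by name: 19 of 30 for JAK-STAT, 31 of 33 for NF-kB, 15 of 16 for the TNF receptor family and 5 of 15 for the last list. Stat1a, stat1b, socs3a and socs3b were among those not found, so nothing is known of them here. Of 15 JAK-STAT genes tested, 28 of the NF-kB and interleukin-1 pathway, 11 of the TNF receptor family and 2 receptors of CSF and other chemoattractants, none was called higher or lower by limma. At an unadjusted p below 0.05 there were 3 of these 56 genes between focad null and wild type (5.36%, against 14.7% of all genes), 6 between pdia6 null and wild type (10.7%, against 12.5%) and 6 between the nulls (10.7%, against 17.9%). Limma voom called 0 in each comparison. Socs2, a feedback inhibitor of cytokine receptors, had the lowest p of its list between pdia6 null and wild type. Its level was 3.54, 3.37 and 9.76 FPKM in pdia6 null and 15.3, 15.9 and 18.6 FPKM in wild type (-1.66 ± 0.53, limma adjusted p = 0.231). Nfkbiab, an inhibitor of NF-kB, stood at 5.43, 9.47 and 34.0 FPKM in pdia6 null and 57.0, 33.6 and 109 FPKM in wild type (-2.29 ± 0.72, limma adjusted p = 0.224). Tradd, the adaptor of the TNF receptor, stood at 7.15, 7.59 and 6.70 FPKM in focad null and 3.49, 4.72 and 5.15 FPKM in wild type (0.50 ± 0.20, limma adjusted p = 0.308). Csf1ra, the receptor of Csf1 and Il34, stood at 0.471, 0.156 and 0.302 FPKM in focad null and 0.894, 0.646 and 1.07 FPKM in wild type (-0.56 ± 0.19, limma adjusted p = 0.233).

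Summed markers of the leukocytes that carry these receptors overlapped between groups, except the B cell sum, which the gene igic1s1 set apart. Macrophage markers summed to 170 to 1321 FPKM in focad null, 153 to 434 in pdia6 null and 247 to 283 in wild type, with 13 measured and 0 of 12 tested called. Cd74a, cd74b and lygl1 together made up most of this sum in every library, so it hides the scarcer markers. Of the 12, csf1ra, c1qa and c1qc were lower in every focad null library than in every wild-type library, and 0 were higher. For c1qa the margin was small, at 2.414 FPKM in focad null replicate 2 against 2.462 FPKM in wild-type replicate 1 as deposited. Rescaling by 0.9054 and 1.014 reverses the order of these libraries, so the groups then overlap for c1qa. Neutrophil markers summed to 271 to 539 FPKM in focad null, 78.5 to 2215 in pdia6 null and 181 to 1334 in wild type, with 0 of 4 tested called and the defining marker lyz at 0. Only 8 of 13 neutrophil symbols were found, and itln3 alone made up most of the sum in every library. It reached 502 FPKM in focad null replicate 2, 2181 in pdia6 null replicate 1 and 1306 in wild-type replicate 1. These sums therefore say little about neutrophils. B cell markers, 9 measured and 0 of 2 tested called, summed to 1.11 to 1.73 FPKM in focad null and 1.06 to 1.99 in pdia6 null, below the 2.73 to 4.49 FPKM of wild type. The B cell light chain igic1s1 stood at 0.0791, 0.281 and 0 FPKM in focad null and 0.400, 0.0418 and 0 FPKM in pdia6 null, against 1.02, 3.37 and 2.08 FPKM in wild type. Blnk, the other B cell marker tested, overlapped between groups. It stood at 0.776, 0.978 and 0.665 FPKM in focad null, 1.08, 0.832 and 0.621 in pdia6 null and 1.27, 0.799 and 1.01 in wild type. Endothelial markers summed to 15.8 to 21.4 FPKM in focad null, 15.0 to 18.4 in pdia6 null and 15.6 to 18.7 in wild type, with 0 of 6 called. Markers of stellate cells and fibroblasts (0 of 9 called) summed to 18.2 to 221 FPKM in focad null, 12.3 to 19.2 in pdia6 null and 21.6 to 22.5 in wild type, and those of exocrine pancreas (0 of 14 called) to 623 to 4153, 407 to 899 and 331 to 916 FPKM. Among all marker lists, the genes called against wild type were sult1st1 of the intestine list and hbaa2, a globin, of the erythroid list, both higher in focad null (limma adjusted p = 0.0422 and 0.0340). Hbaa2 was scarce, at 0.885 to 1.95 FPKM in focad null, and the erythroid list went the other way, with a median log2 difference of -0.70. The abundant globin hbaa1 stood at 74.5, 37.5 and 120 FPKM in focad null, wholly below the 123, 186 and 174 FPKM of wild type. Il13ra2, il6st and il2rb were lower in the same null libraries as igic1s1, and the part of leukocyte number in these values was not tested.

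Many of these genes are neighbours on their chromosomes. In the RefSeq gene order of GRCz12tu, another build than the one named by the submitters, 108 of the 125 symbols of these genes were found, and 36 of these lay in 15 runs of members at most 1 gene apart. Ccl39.3, ccl39.1, ccl39.2 and ccl35.1 formed a run, in which the first 3 genes averaged lower and ccl35.1 higher in focad null than in pdia6 null. Cxcl8b.3 lay in a run with cxcl19 and cxcl8b.1, and cxcl20 in a run with cxcl11.4, cxcl11.3 and cxcl11.1. Ccl38a.5 lay between ccl38.6 and ccl38a.4. Ccl38.6 measured 0.122, 0.173 and 0.219 FPKM in focad null, 3.57, 0.0517 and 4.38 FPKM in pdia6 null and 0.288, 5.58 and 14.7 FPKM in wild type, and ccl38a.4 measured 1.68, 7.50 and 0.160 FPKM in focad null, 1.54, 0.0604 and 1.15 FPKM in pdia6 null and 1.55, 2.06 and 7.78 FPKM in wild type. Focad null lay wholly below wild type for ccl38.6 (-2.20 ± 0.91, limma adjusted p = 0.315), and the groups overlapped for ccl38a.4 in that comparison.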

How the data were processed

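Zebrafish liver RNA was measured in 9 sequencing libraries, 3 per group. Per the labels' protocols, RNA came from snap-frozen livers through Qiagen kits, and libraries were made from 1 µg at an integrity above 6.5. Bowtie2 2.2.3, TopHat2 2.0.12, HTSeq 0.6.1 and danRer11 appear in the submitters' processing notes without their roles. The gene annotation, whether counting used strand and the test behind the authors' p-values were not given in the sources used here. Levels, as deposited, are FPKM with 1 column per library. Per the file headers, the authors' 2 tables of null against wild type hold group means of read counts (a signal scaled within each table) and a p-value, raw and adjusted.

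Since low FPKM values step by what 1 read is worth, reads were recovered: 164588 of 164588 values below 1000 reads (100%) were whole within 0.05. Column totals gave 46.1 to 54.5 M reads per library, and floors of 3 reads cover counting error only. FPKM were rescaled by the median ratio over the 7660 genes that reached 1 FPKM in every library. Genes averaging at least 0.5 rescaled FPKM were tested as log2(FPKM + 1) with limma 3.58.1 in R 4.3.3 (trend and robust), with 3 group means, 6 residual degrees of freedom, two-sided tests and Benjamini-Hochberg adjustment at 0.05. The planned design named edgeR for the case that the files held counts, which they did not. The test was checked on simulated data.

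The gene rule and all lists were chosen with earlier results of these data known. The members named were those called, the 4 most abundant per role, the 5 with the lowest p per comparison, a list of textbook members, and those at least 10-fold apart between group means without overlap. Of the lists, called genes or the gene with the lowest p were named. Deviations of same-numbered libraries from their group means had correlations of -0.19 to 0.29, and those of other pairs -0.41 to 0.24. Replicate numbers were therefore not used as pairs. With 3 libraries per group this check cannot exclude that same-numbered libraries shared a batch. Gene neighbours came from RefSeq names only, and no coordinate was used. Summaries used Python 3.11.15 with pandas 2.3.3, and matplotlib 3.10.9 for plots. Alternatives were other pseudocounts, filters, scalings and fits, limma voom (at least 10 reads in 3 libraries), omitted libraries and the authors' tables.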

Additional observations from a re-analysis of the deposited data

Results flagged for a closer look

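Ccl39a.10, ccl35.1 and ccl39.7 differed between focad null and pdia6 null in a direct test, with log2 differences of -7.33, 1.65 and -0.82 (limma adjusted p = 0.0336, 0.0357 and 0.0488, n = 3 each). Ccl39a.10 was at 0 in all 3 focad null libraries and at 110 to 236 FPKM in pdia6 null, on opposite sides of the wild-type mean of 23.4 FPKM. Wild type itself stood at 0, 47.8 and 22.2 FPKM, so its replicate 1 was at the focad null level. Neither null passed against wild type in limma. For ccl35.1, focad null lay above wild type in 3 of 3 libraries, and pdia6 null averaged 3.22 ± 1.72 FPKM, below the wild-type mean of 5.22 ± 1.03 FPKM (SD). Ccl39.7 had no read in focad null, whereas pdia6 null and wild type overlapped.

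Ccr9 (ENSDARG00000055186) drew notice because every focad null library lay above and every pdia6 null library below all wild-type libraries, with log2 differences of 1.05 and -0.38. The difference between the nulls was 1.43 ± 0.36 and did not pass (limma adjusted p = 0.112).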

How the results depend on the processing

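The 15 named gene differences kept their direction in all 324 values computed: 261 kept their side of the threshold, 53 lost it and 10 gained it. The genes called between focad null and wild type, 3 among those described here and 207 in all, became 1 with a filter of at least 1 FPKM, 0 with the 6 libraries compared only, and 1 (121 in all) with the replicate block. Without the libraries labelled focad null replicate 2 and pdia6 null replicate 1 there was 1. Without wild-type replicate 1 and pdia6 null replicate 1 there were 136 in all. The authors' deposited table for this comparison held 3 (295 in all), namely cxcl8b.3, ccl39.7 and ccl39a.10. Between pdia6 null and wild type, 0 (163 in all) became 0 (82) with the replicate block, 1 (107) without wild-type replicate 1 and pdia6 null replicate 1, and 3 (428) in the authors' deposited table. Between the nulls, 3 (160) became 5 (254) with a pseudocount of 0.1, 1 with no filter, 1 (82) with the replicate block, 1 without focad null replicate 2 and pdia6 null replicate 1, and 67 in all without wild-type replicate 1 and pdia6 null replicate 1. Limma voom called 250 genes in all there. The cause of these changes was not tested. Fits with fewer libraries have fewer residual degrees of freedom, but their counts went up as well as down. Whether same-numbered libraries share more than a number is not known.

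The median difference between the nulls over the tested members was 0.35 without wild-type replicate 1 and pdia6 null replicate 1, against 0.06. The median CXC sum of pdia6 null was 55.6 rescaled FPKM, against 58.6 as deposited. Leaving out each library in turn gave 89 to 484, 74 to 256 and 60 to 631 genes in all for the comparisons in the order above, 0 to 5, 0 to 1 and 0 to 10 of the members, member medians, near 0 and of either sign in the first and the last comparison, of -0.19 to 0.06, -0.39 to -0.13 and -0.13 to 0.32, and 0 pathway genes throughout. Low levels kept many of these genes out of the main test: 70 of 129 were below its filter of 0.5 FPKM, with at most 617 reads in all.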
